A study of Mus musculus with 6 samples.

Results

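Atxn1, Atxn1l, Cic, Etv1, Etv4 and Etv5 were examined as 1 regulatory group of 6 genes among the 24063 genes counted in liver tumors of WT and Nr2e3-/- mice. The members were the rows of the count table that carry these gene symbols, and all 6 were found. The group was chosen by the level of Atxn1, which was already known to be higher in Nr2e3-/- than in WT tumors of this series, and the question was whether the repressor it partners with, Cic, and the ETS genes that Cic represses followed. The Atxn1 difference therefore chose the group and is given as a description, without a test.

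Both groups consisted of male C57BL/6 mice injected with the liver carcinogen diethylnitrosamine (DEN, 25 mg per kg) at 15 days of age, and tumors were taken at the 24-week time point. The WT group carried both Nr2e3 alleles (NR2E3+/+) and the knockout group carried none (NR2E3-/-) in any cell of the body. Each group had 3 tumor libraries. No animal identifiers are given with the labels, so p-values measure the spread between these libraries.

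ATXN1 is the protein whose expanded polyglutamine tract causes spinocerebellar ataxia type 1. Together with its paralog ATXN1L it binds Capicua (CIC), a DNA-binding HMG-box repressor, and both partners stabilize the CIC protein and take part in its repression. Receptor tyrosine kinase signaling through RAS and ERK relieves CIC repression, and the best known genes released are the PEA3 group of ETS transcription factors (ETV1, ETV4 and ETV5) and feedback inhibitors of the same cascade. In liver cancer, loss of CIC with a gain of ETV4 has been linked to invasive growth.

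CIC recognizes 8-base elements, searched here as the letters TGAATGAA, TGAATGGA, TCAATGAA and TCAATGGA on both strands of the 250 bases before each RefSeq start site (GRCm38.p6). At least 1 of them stood in 3.19% of 32851 promoters and at 3.71% of 27025 genes. Promoters of 4 members were at hand (Atxn1l, Cic, Etv1 and Etv5, with 7 promoters in all), and none of these windows held the letters. Of 21 genes listed from general knowledge as CIC-repressed, 13 had a promoter at hand and 5 of those held an element, namely Dusp6, Spry2, Spred3, Epha2 and Shc4. Their last 60 bases before the start site are shown on the gene's own strand, with the element in capitals. CIC is known to read its targets through elements of this kind. The capitals are matches to the letters, and binding of CIC to them was not tested. In 3 of them the capitals are the reverse complement of the letters searched. The element began 24 bases before the start in Dusp6, 54 in Spry2, 10 in Spred3, 15 in Epha2 and 25 in Shc4. The windows are chr10:99263171-99263230 (plus strand), chr14:105896820-105896879 (minus), chr7:29168648-29168707 (minus), chr4:141301161-141301220 (plus) and chr2:125724149-125724208 (minus), in that order.
Dusp6: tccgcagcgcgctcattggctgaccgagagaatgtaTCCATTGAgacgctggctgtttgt
Spry2: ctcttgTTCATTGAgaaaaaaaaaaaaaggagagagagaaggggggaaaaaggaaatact
Spred3: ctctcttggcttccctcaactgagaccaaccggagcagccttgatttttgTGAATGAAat
Epha2: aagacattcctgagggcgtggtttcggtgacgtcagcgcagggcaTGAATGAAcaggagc
Shc4: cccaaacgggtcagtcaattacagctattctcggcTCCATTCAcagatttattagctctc

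The libraries held 15376261 to 28690279 counts, and 13572 genes had enough counts to be tested, all 6 members among them. Nr2e3 itself had 0 counts in all 6 libraries, which allows at most 0.105 to 0.195 CPM (normalized counts per 1000000 counts of a library), so the genotype could not be checked from its own transcript. The 3 WT libraries resembled each other closely, with Pearson r of log2 CPM across genes of 0.986 to 0.987. Nr2e3-/- replicate 1, the library with the fewest counts, stood apart from its group. Its r was 0.973 to 0.981 with WT libraries, but 0.952 with Nr2e3-/- replicate 2 and 0.972 with replicate 3. Values without this library are also given for Atxn1, Etv4 and most of the gene lists. The 6 hepatocyte markers summed to 121757 to 150423 CPM in WT and 107070 to 127395 CPM in Nr2e3-/- tumors, so hepatocyte transcripts were abundant in every library. As these are bulk tumors, fewer cells of a type and less RNA per cell cannot be told apart in any result that follows.

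Atxn1 was the member that separated the groups most widely. Its level was 8.14, 11.4 and 12.4 CPM in the WT tumors and 41.2, 40.6 and 56.8 CPM in the Nr2e3-/- tumors, with counts of 212 to 357 and 622 to 1093. Every Nr2e3-/- library was above every WT library, and the lowest was 3.28 times the highest WT value. The means were 10.7 ± 2.23 and 46.2 ± 9.22 CPM (SD, n = 3 each), a log2 fold change of 2.11 (SE 0.21, 95% interval 1.62 to 2.61), or 4.33-fold. Nr2e3-/- replicate 1, which resembled WT across genes, did not do so for Atxn1: at 41.2 CPM it was level with replicate 2. Without that library the log2 fold change was 2.20, and over the 6 fits that each left out 1 library it ran from 1.94 to 2.23.

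**Figure D1:**
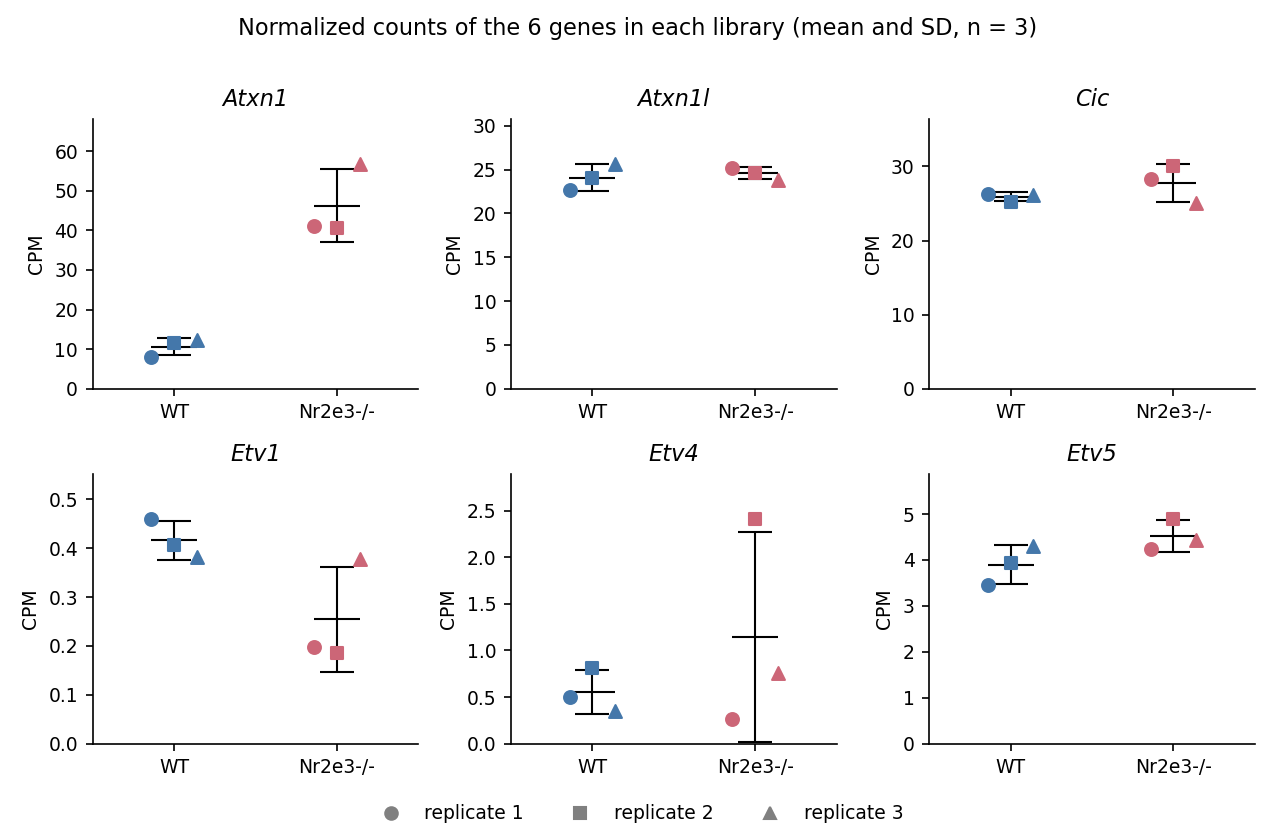
Normalized level of each gene in CPM (vertical axis, starting at 0) for the 3 WT and 3 Nr2e3-/- libraries, with the marker shape giving the replicate and the black lines the mean and SD. Atxn1 lies between 8.14 and 12.4 CPM in WT and between 40.6 and 56.8 CPM in Nr2e3-/- tumors, whereas Atxn1l, Cic, Etv4 and Etv5 overlap between genotypes.

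Atxn1 lies on chromosome 13 from 45549755 to 45965008 (GRCm38, minus strand). Its 3' end overlaps an exon of Gmpr (13, 45507444 to 45553800), which is read from the opposite strand and encodes guanosine monophosphate reductase. Without strand information, reads from the overlap cannot be told apart, and their part in the Atxn1 count was not tested. Gmpr had 139 counts over all 6 libraries and Atxn1 3673, and the Gmpr log2 fold change was -0.06 (95% interval -0.97 to 0.84). The neighboring genes were read next, to see how the rest of the locus behaved. Of 10 genes within 1 Mb of Atxn1, 7 were tested, and their log2 fold changes ran from -0.29 to 0.21 with a median of -0.06. None passed an adjusted p of 0.05, and at an unadjusted p under 0.05 there was 1, Dtnbp1 (dysbindin), against 21.5% of all genes. Dtnbp1 was at 30.3, 28.8 and 30.7 CPM in WT and 24.2, 24.6 and 24.3 CPM in Nr2e3-/- tumors (log2 fold change -0.29, SE 0.09, adjusted p 0.158), the direction opposite to Atxn1. The others named by rule were Nup153, a nuclear pore subunit (0.21, adjusted p 0.563), Jarid2, a Polycomb cofactor (-0.11, adjusted p 0.583), and Mylip, a ubiquitin ligase for the LDL receptor (-0.09, adjusted p 0.829). Without Nr2e3-/- replicate 1, Nup153 was the 1 neighbor to pass an adjusted p of 0.05 (0.0225), in a fit in which 21.8% of all genes did.

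Atxn1l, the paralog that can stand in for Atxn1 in the CIC complex, was at 22.6, 23.99 and 25.7 CPM in WT and 25.2, 24.6 and 23.8 CPM in Nr2e3-/- tumors. All 3 knockout values lay inside the WT range. The log2 fold change was 0.03 (SE 0.10, adjusted p 0.891 by edgeR's quasi-likelihood test with Benjamini-Hochberg adjustment over all genes), with a 95% interval of -0.22 to 0.27. The gene lies on chromosome 8 from 109726451 to 109737739 (minus strand).

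Cic, the repressor itself, lies on chromosome 7 from 25267704 to 25294159 (plus strand). Its level was 26.3, 25.2 and 26.1 CPM in WT and 28.3, 30.1 and 25.04 CPM in Nr2e3-/- tumors. Replicates 1 and 2 of the knockout were above the WT libraries and replicate 3 was below them, so the groups overlapped. The log2 fold change was 0.10 (SE 0.11, adjusted p 0.597), with a 95% interval of -0.15 to 0.36. Cic transcript was thus not shown to differ, and the interval bounds a change at 0.36 upward and 0.15 downward. These are transcript levels, and the CIC protein, which ATXN1 and ATXN1L are known to stabilize, was not measured in them.

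The balance between the 3 partners was then compared per length, dividing CPM by the length of all annotated exons of the gene in kilobases (13914 bases for Atxn1, 7526 for Atxn1l and 10294 for Cic). On this scale Atxn1 was the least abundant of the 3 in WT tumors, with a mean of 0.766 CPM per kb against 3.20 for Atxn1l and 2.51 for Cic. In Nr2e3-/- tumors Atxn1 was at 3.32 CPM per kb, beside Atxn1l at 3.26 and Cic at 2.70, although it passed Atxn1l only in replicate 3. Atxn1 made up 16.3%, 20.5% and 20.7% of the summed Atxn1 and Atxn1l level in the WT libraries and 46.9%, 47.1% and 56.3% in the Nr2e3-/- libraries. The 2 paralogs together were at 1.40, 1.64 and 1.69 times the Cic level per length in WT and at 2.29, 2.12 and 2.98 times in Nr2e3-/- tumors. Atxn1l alone kept a ratio to Cic of 1.17 to 1.34 in WT and 1.12 to 1.303 in Nr2e3-/- tumors. The shares and ratios with Atxn1 rest on the level that chose the group. They are a description and not a separate result. The log2 difference of Atxn1l and Cic within a library changed by -0.07 between groups (exact two-sided permutation p 0.6, where 3 against 3 libraries can give no p below 0.1).

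**Figure D2:**
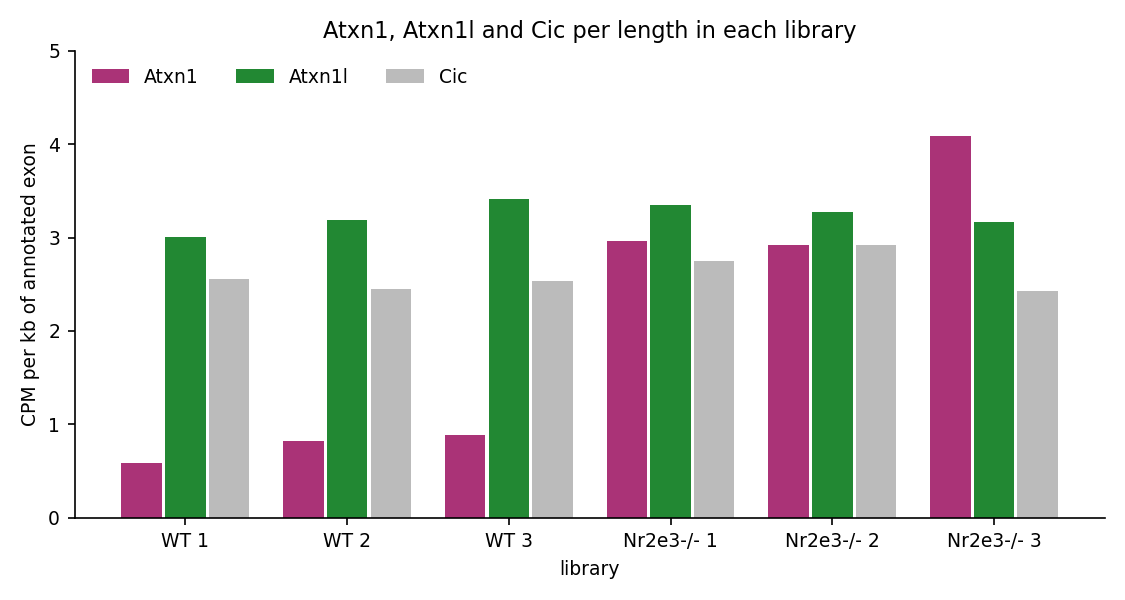
Level per length of Atxn1, Atxn1l and Cic (bars, CPM per kilobase of annotated exon, axis from 0) in each of the 6 libraries. Atxn1 is the shortest bar in all WT libraries and lies between 2.92 and 4.08 CPM per kb in the Nr2e3-/- libraries, while Atxn1l and Cic stay between 2.43 and 3.41 throughout.

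The PEA3 genes, whose transcripts CIC is known to hold down, were all low in these tumors. Etv5 lies on chromosome 16 from 22381309 to 22439719 (minus strand). It was at 3.46, 3.92 and 4.30 CPM in WT and 4.24, 4.90 and 4.43 CPM in Nr2e3-/- tumors, from 64 to 132 counts per library. The knockout values were on the upper side, but replicate 1 at 4.24 CPM fell below the highest WT value. The log2 fold change was 0.22 (SE 0.17, adjusted p 0.484), with a 95% interval of -0.19 to 0.63.

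Etv4, a factor linked to invasion and metalloprotease expression, lies on chromosome 11 from 101769742 to 101785371 (minus strand). Its level was 0.499, 0.812 and 0.347 CPM in WT (13, 24 and 10 counts) and 0.265, 2.41 and 0.757 CPM in Nr2e3-/- tumors (4, 65 and 14 counts). The knockout libraries thus spanned a 9.11-fold range, with replicate 1 below every WT library, replicate 3 inside the WT range and only replicate 2 above it. The log2 fold change was 1.11 (SE 0.72, adjusted p 0.394), with a 95% interval of -0.58 to 2.81. Nr2e3-/- replicate 2 decided the direction: without it the log2 fold change was -0.08 (adjusted p 0.952), and without replicate 1 it was 1.55 (adjusted p 0.0962).

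Etv1, a PEA3 factor known as an oncogene in prostate and stromal tumors, lies on chromosome 12 from 38779380 to 38870484 (plus strand). It was barely detected, at 0.461, 0.406 and 0.381 CPM in WT (12, 12 and 11 counts) and 0.199, 0.186 and 0.379 CPM in Nr2e3-/- tumors (3, 5 and 7 counts). The groups did not overlap, as holds for 26.8% of all tested genes, but the highest knockout value, 0.379 CPM, lay just below the lowest WT value, 0.381 CPM. The log2 fold change was -0.72 (SE 0.41, adjusted p 0.345), with a 95% interval of -1.69 to 0.26. Etv1 entered the test through its WT libraries, where it had 11 or 12 counts, so a lower knockout level was favored by the filter and the value supports no direction. Per length of annotated exon, the WT means of the PEA3 genes ranked Etv5 (0.949 CPM per kb), Etv4 (0.178) and Etv1 (0.0313), and the Nr2e3-/- means kept this order at 1.103, 0.369 and 0.0191. The libraries did not overlap on this scale, with Etv5 at 0.842 CPM per kb or more, Etv4 from 0.0853 to 0.777 and Etv1 at 0.0347 or less. The log2 difference of Etv5 and Etv4 CPM within a library, not divided by length, was 2.71 ± 0.60 in WT and 2.35 ± 1.32 in Nr2e3-/- tumors (SD, n = 3, exact two-sided permutation p 0.8).

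**Figure D3:**
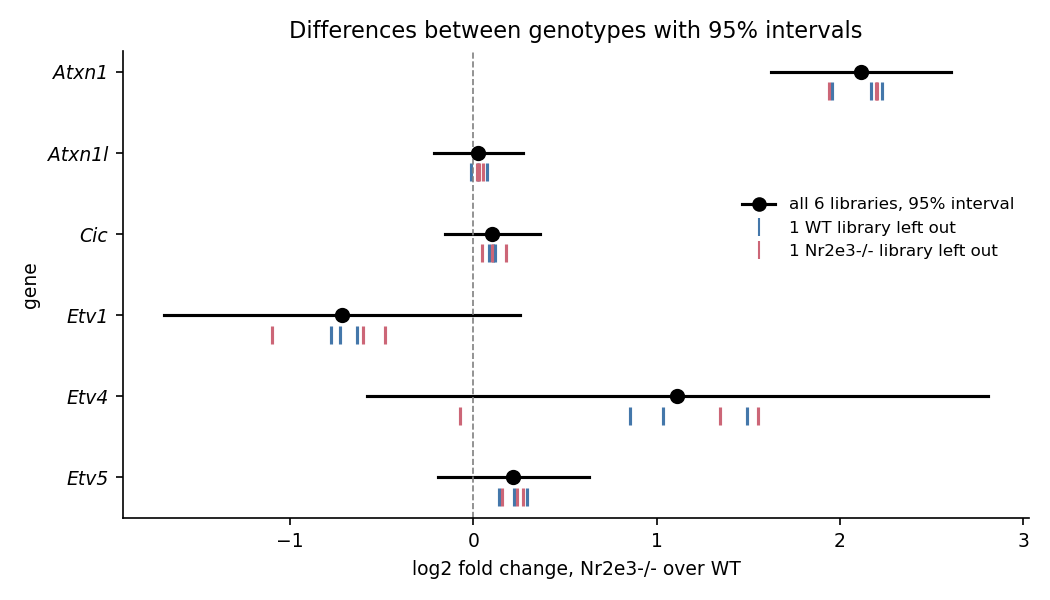
Log2 fold change of Nr2e3-/- over WT for each gene (black points) with its 95% interval (lines), and below each the value after leaving out 1 WT library (blue ticks) or 1 Nr2e3-/- library (red ticks). The Atxn1 interval runs from 1.62 to 2.61 and is shown as a description, the intervals of the other 5 genes include 0, and 1 red tick of Etv4 lies at -0.08, away from its other ticks.

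None of the 5 members other than Atxn1 passed an adjusted p of 0.05 or an unadjusted p of 0.05. Over all genes 0.0958% passed the adjusted threshold and 21.5% the unadjusted one. DESeq2 and limma-voom, which called far more genes, also called none of these 5, with no adjusted p from DESeq2 for Etv1. The median log2 fold change of the 5 was 0.10, beside 0.01 over all genes tested. Neither Cic nor any PEA3 gene was thus shown to follow Atxn1, and the bounds differ widely in what they allow. For Cic and Atxn1l the interval stays within 0.36 of 0 on the log2 scale, for Etv5 within 0.63, and for Etv1 and Etv4 it extends beyond 1.

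The other genes that CIC is known or proposed to repress gave a broader view of the same question. Of the 21 on the list, 17 were tested, and 13 of the 17 had a log2 fold change below 0. Their median was -0.24, beside 0.01 over all genes. At an unadjusted p under 0.05, 3 were lower and 1 higher in Nr2e3-/- tumors (23.5% of the list, against 21.5% of all genes, 9.72% lower and 11.8% higher). Shares so close to the background are no result about the list, and the PEA3 genes themselves were not counted in it.

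Phlda1, a pleckstrin-homology protein induced by growth factor signaling, was the gene of the list that passed an adjusted p of 0.05, as 0.0295% of all genes did on the lower side. It fell from 101.9, 95.8 and 106 CPM in WT to 41.4, 31.8 and 44.8 CPM in Nr2e3-/- tumors (log2 fold change -1.37, SE 0.15, adjusted p 0.0454). Without any 1 WT library, or without Nr2e3-/- replicate 3, its adjusted p was above 0.05, up to 0.251. Phlda1 was known from earlier results of this series and is not independent evidence for the list. Spry1 and Spry2, Sprouty inhibitors of receptor tyrosine kinase signaling, came next on the lower side. Spry1 was at 7.99, 6.83 and 7.25 CPM in WT and 4.63, 4.53 and 3.41 CPM in Nr2e3-/- tumors, with no overlap (log2 fold change -0.81, SE 0.18, adjusted p 0.102). Spry2, which carries the element shown above, was at 5.68, 4.13 and 2.95 CPM in WT and 3.11, 1.89 and 1.14 CPM in Nr2e3-/- tumors (log2 fold change -1.07, adjusted p 0.192). The groups overlapped there at replicate 1 of the knockout and replicate 3 of the WT.

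The 1 gene on the higher side was Fosl1, which encodes the AP-1 subunit FRA1. It was at 0.768, 0.440 and 0.451 CPM in WT and 0.596, 6.50 and 1.35 CPM in Nr2e3-/- tumors (log2 fold change 2.39, SE 0.84, adjusted p 0.175). Like Etv4, it was highest in Nr2e3-/- replicate 2, and in replicate 1 it was within the WT range, where Etv4 was below it. Without replicate 2 the Fosl1 log2 fold change was 0.85 (adjusted p 0.366). Without replicate 1, the unadjusted count for the list was 2 higher and 5 lower of 17 (41.2%), in a fit in which 37.7% of all genes passed. The genes then past an adjusted p of 0.05 were Spry1, Spry2, Spry4 and Phlda1 on the lower side and Fosl1 and Spred1 on the higher side. In that fit 21.8% of all genes passed the same threshold. Among the genes with the element, the log2 fold change was -0.23 for Dusp6 (95% interval -0.70 to 0.24), -1.07 for Spry2, -0.10 for Spred3 (-1.32 to 1.12) and 0.24 for Epha2 (-0.53 to 1.02), and Shc4 had too few counts to be tested.

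**Figure D4:**
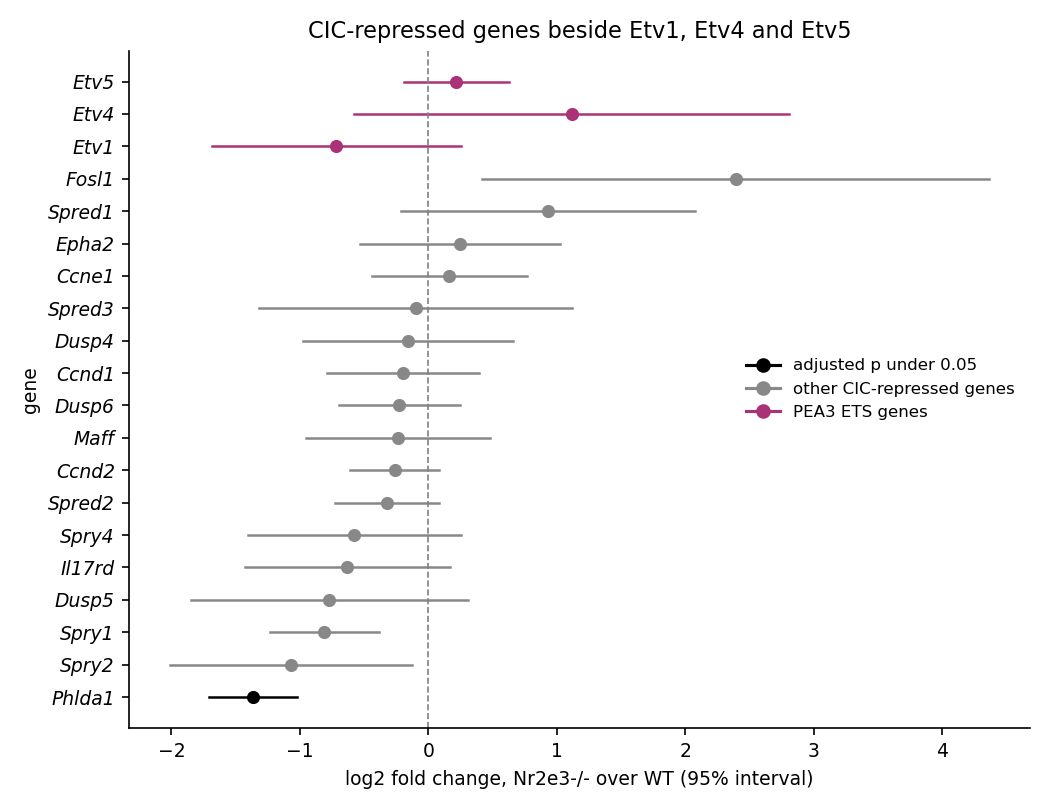
Log2 fold change of Nr2e3-/- over WT with 95% intervals for the 17 tested CIC-repressed genes, sorted by size (grey, and black for Phlda1, which passed an adjusted p of 0.05), below the 3 PEA3 genes (purple). Of the 17 genes, 13 lie below 0 and most intervals include 0.

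Genes that PEA3 factors are known or proposed to activate were read as the next step of the pathway. Of 18 listed, 14 were tested, 3 were higher and 1 lower at an unadjusted p under 0.05 (28.6%, against 21.5% of all genes), none passed an adjusted p of 0.05, and the median log2 fold change was -0.05. The 3 higher genes were Plaur, the urokinase receptor, Spp1, which encodes osteopontin, and Twist1, a transcription factor of epithelial-mesenchymal transition. Plaur was at 1.80, 1.76 and 1.08 CPM in WT and 1.19, 12.99 and 4.60 CPM in Nr2e3-/- tumors (log2 fold change 2.04, adjusted p 0.184). Spp1 was at 107, 46.0 and 47.1 CPM in WT and 56.3, 410.2 and 171 CPM in Nr2e3-/- tumors (1.68, adjusted p 0.219). Both were highest in replicate 2, as Etv4 was, with replicate 3 next and replicate 1 within the WT range. Without replicate 2 the log2 fold changes were 0.93 for Plaur and 0.78 for Spp1. Plau, the urokinase that binds Plaur, had the opposite sign (-0.81, adjusted p 0.223), at 1.71 and 1.57 CPM in replicates 2 and 3 against 3.64 to 4.20 CPM in the other 4 libraries. Twist1 had a log2 fold change of 1.05 (adjusted p 0.231) at 0.422 to 1.78 CPM. The metalloprotease Mmp14 was even across libraries (32.2 to 38.9 CPM), and Mmp9 and Mmp13 were at most 2.23 CPM.

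The high level of Etv4, Fosl1, Plaur and Spp1 in Nr2e3-/- replicate 2 ran beside some markers of other cells. The 4 neutrophil markers found in the table summed to 1.49 to 2.74 CPM in WT. In Nr2e3-/- replicates 1, 2 and 3 they summed to 2.32, 22.1 and 13.1 CPM. Only 2 of the 4 were tested, S100a8 and S100a9. Both were higher at an unadjusted p under 0.05, as 11.8% of all genes were. Mpo, which defines early granulocytes, was at 0 counts in all WT libraries and at 1, 7 and 0 counts in Nr2e3-/- replicates 1, 2 and 3. These were too few to be tested. The 6 macrophage markers, all tested and all above 0 in log2 fold change, summed to 209 to 270 CPM in WT and 194, 445 and 242 CPM in Nr2e3-/- tumors. The 6 bile duct markers summed to 57.3 to 119 CPM in WT and 69.1, 429 and 185 CPM in Nr2e3-/- tumors, mostly through Spp1, which is also one of the PEA3 targets. Within that list Epcam had a log2 fold change of 1.58 (adjusted p 0.178). It was at 1.80 to 2.37 CPM in WT and 1.79, 10.95 and 5.79 CPM in Nr2e3-/- tumors, highest in replicate 2. Other bile duct markers did not share this peak. Krt19, a keratin, was at 0.555 to 1.11 CPM in WT and 1.79, 0.668 and 1.73 CPM in the knockout replicates. Krt7 and Sox9 were below every WT library in replicate 2, at 0.520 and 6.09 CPM. They had log2 fold changes of -0.29 and -0.21. The authors had already reported Epcam as higher in these Nr2e3-/- tumors. The part of neutrophils, macrophages and bile duct cells in the Etv4 level was not tested. Without replicate 2, no PEA3 target passed an unadjusted p of 0.05 (19.0% of all genes did), and without replicate 1, 7 of 15 did (5 higher, 2 lower, beside 37.7% of all genes). In the latter fit Mmp9, Plaur, Spp1 and Icam1 on the higher side and Plau on the lower side passed an adjusted p of 0.05, as did 21.8% of all genes.

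**Figure D5:**
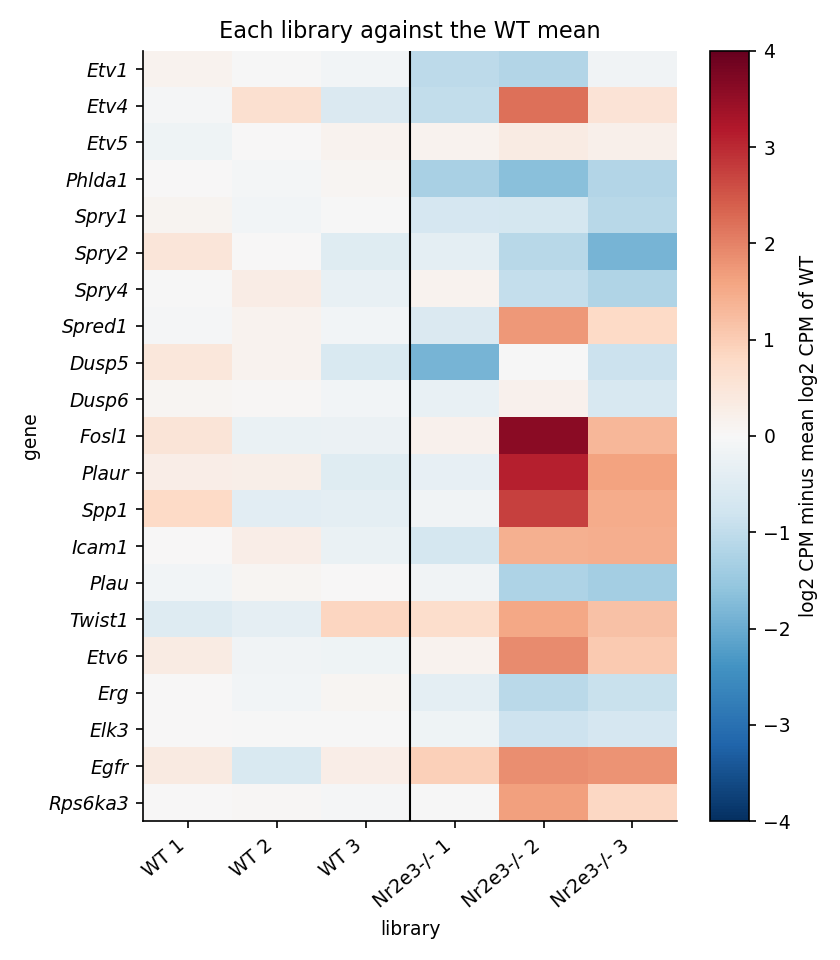
Log2 CPM of each gene minus its mean log2 CPM over the WT libraries (color, red higher and blue lower) in the 6 libraries, for the PEA3 genes and pathway genes picked after their values were seen. Etv4, Fosl1, Plaur and Spp1 are reddest in Nr2e3-/- replicate 2 and pale or blue in replicate 1, whereas Phlda1 and Spry1 are blue in all 3 Nr2e3-/- libraries.

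Of 21 listed known or proposed protein partners of ATXN1 and CIC, 20 were tested. At an unadjusted p under 0.05, 1 was higher and 1 lower (10%, against 21.5% of all genes). None passed an adjusted p of 0.05, and the median log2 fold change was 0.14. Rps6ka5 encodes MSK1, a kinase known to phosphorylate ATXN1. It was at 2.496, 2.44 and 3.92 CPM in WT and 1.52, 0.743 and 1.14 CPM in Nr2e3-/- tumors (log2 fold change -1.41, SE 0.34, adjusted p 0.113), without overlap. Sp1, a transcription factor that binds ATXN1, was at 41.5 to 44.6 CPM in WT and 48.9 to 58.2 CPM in Nr2e3-/- tumors (0.33, SE 0.11, adjusted p 0.154). Kat5, an acetyltransferase (0.32, adjusted p 0.242), and Ywhae, a 14-3-3 protein that binds phosphorylated ATXN1 (0.23, adjusted p 0.262), also had non-overlapping groups, as did 5 of the 20 against 26.8% of all genes. The corepressors Ncor1, Sin3a and Hdac3 had log2 fold changes of -0.07, -0.10 and -0.05. Without Nr2e3-/- replicate 1, 11 of the 20 passed an unadjusted p of 0.05 (8 higher, 3 lower), beside 37.7% of all genes. In that fit 6 passed an adjusted p of 0.05, Sp1 (0.0191) and Rps6ka5 (0.0212) among them, beside 21.8% of all genes. With limma-voom 9 of the 20 passed an unadjusted p of 0.05, beside 36.7% of all genes.

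PEA3 proteins are degraded through the COP1 ubiquitin ligase, so its subunits and adaptors were read as well. All 8 genes found in the table were tested, and none passed an unadjusted p of 0.05 by edgeR, DESeq2 or limma-voom, beside 21.5%, 22.2% and 36.7% of all genes. Rfwd2, which encodes COP1, was at 14.1, 11.9 and 13.3 CPM in WT and 15.1, 14.4 and 15.9 CPM in Nr2e3-/- tumors (log2 fold change 0.21, adjusted p 0.348). The others ran from -0.46 for the adaptor Trib2 (adjusted p 0.451) to 0.15 for Ddb1 (adjusted p 0.459), with Cul4a, the scaffold, at -0.11 (adjusted p 0.591).

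Upstream, the RAS-ERK cascade that releases CIC repression had 21 listed genes, all tested, of which 4 were higher and 2 lower at an unadjusted p under 0.05 (28.6%, against 21.5% of all genes), and none passed an adjusted p of 0.05. The median log2 fold change was 0.17. Egfr, the EGF receptor, was at 551, 281 and 526 CPM in WT and 835, 1569 and 1519 CPM in Nr2e3-/- tumors (log2 fold change 1.53, SE 0.33, adjusted p 0.0999). Grb2, the adaptor that links it to RAS, was at 30.6 to 35.9 CPM in WT and 42.8 to 51.9 CPM in Nr2e3-/- tumors (0.50, SE 0.12, adjusted p 0.111). Both had non-overlapping groups with replicate 1 lowest in the knockout. Egfr, 1 of the 4 higher genes, was known to be higher from earlier results of this series and is not independent evidence for the list. On the lower side were Rps6ka1, the ERK-activated kinase RSK1 (-0.65, adjusted p 0.174), and Mapk3, which encodes ERK1 (-0.28, adjusted p 0.184). Without Nr2e3-/- replicate 1, 7 were higher and 1 lower at an unadjusted p under 0.05 (38.1%, beside 37.7% of all genes). In that fit 5 passed an adjusted p of 0.05, all higher, Egfr (0.0100) and Grb2 (0.0127) among them, beside 21.8% of all genes. All these values are transcript levels, and ERK activity was not measured.

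Of the remaining ETS family, 23 genes were listed and 19 tested, 2 higher and 3 lower at an unadjusted p under 0.05 (26.3%, against 21.5% of all genes), none at an adjusted p of 0.05, with a median log2 fold change of 0.01. Spib, a B cell factor, was at 0.538 to 0.694 CPM in WT and 0.199 to 0.270 CPM in Nr2e3-/- tumors (log2 fold change -1.301, adjusted p 0.125). With 14 to 20 counts in WT and 3 to 7 in Nr2e3-/- libraries, it entered the test through the WT group, so its lower call supports no direction. The B cell markers Cd79a and Ms4a1 were at levels that moved beside it, between 0.381 and 0.846 CPM in WT and between 0.108 and 0.397 CPM in Nr2e3-/- tumors, and they too entered through WT (11 to 25 counts against 2 to 8). The 7 lymphocyte markers as a whole summed to 3.42 to 8.86 CPM in WT and 2.60 to 5.38 CPM in Nr2e3-/- tumors. At an unadjusted p under 0.05, 3 of 7 were lower, as 9.72% of all genes were. The part of lymphocytes in the Spib level was not tested. Erg, an endothelial factor, was at 5.55 to 6.28 CPM in WT and 2.82 to 4.50 CPM in Nr2e3-/- tumors (-0.77, SE 0.22, adjusted p 0.132). Elk3 had the same sign (-0.53, adjusted p 0.174). The 6 endothelial markers summed to 314 to 329 CPM in WT and 277 to 335 CPM in Nr2e3-/- tumors, with 1 higher and 1 lower at an unadjusted p under 0.05. Etv6, a repressor of the family, was at 15.3 to 21.2 CPM in WT and 18.7, 62.7 and 35.04 CPM in Nr2e3-/- tumors (1.17, SE 0.40, adjusted p 0.172). It was again highest in replicate 2 and within the WT range in replicate 1, and its log2 fold change was 0.64 without replicate 2. Without Nr2e3-/- replicate 1, 3 of the 19 were higher and 3 lower at an unadjusted p under 0.05 (31.6%, beside 37.7% of all genes). Elk1 and Etv6 on the higher side and Elk3 and Erg on the lower side then passed an adjusted p of 0.05, as did 21.8% of all genes.

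The 3 genes most like each member across the 6 libraries, by Pearson r of log2 CPM, are given as a description, since the libraries share genotype and depth and the genes were the highest of all tested. For Atxn1 they were Snord47 (r = 0.995), Wfdc21 (0.994) and Gm4944 (0.994). Wfdc21 was at 178 to 196 CPM in WT and 279 to 289 CPM in Nr2e3-/- tumors, a far smaller separation than that of Atxn1. For Atxn1l they were Zfp964 (0.987), Ccng2 (0.975) and the clock repressor Cry2 (0.971). Cic was followed by A4galt (0.994) and by Gm21949 and Schip1 (0.963 each), the last pair with identical values in every library. For the PEA3 genes the leading ones were C030039L03Rik with Etv1 (0.982), the stress-induced Nupr1 with Etv4 (0.993) and Tmem181b-ps and Pdk4 with Etv5 (0.985 each). Snord47, Zfp964, A4galt, C030039L03Rik and Tmem181b-ps were at most 1.14 CPM in any library, so their r rests on few counts. Nupr1 was at 1.04 to 1.93 CPM in WT and 0.927, 5.53 and 2.27 CPM in Nr2e3-/- tumors, lowest in Nr2e3-/- replicate 1 and highest in replicate 2, as Etv4 was.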

How the data were processed

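TruSeq libraries were made from RNA of 6 liver tumors, 3 of each genotype. The authors aligned single-end reads to mm10 (GRCm38) with TopHat and counted them per gene with FeatureCounts. Versions, gene annotation and strand setting are not given in the sources used here. The deposited values are raw counts. The authors' comparison table (fold changes and p-values) and their normalized table were not used.

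Counts were tested with edgeR 4.0.16 in R 4.3.3: filterByExpr (minimum count 10, minimum total count 15), TMM, quasi-likelihood F test (earlier edgeR method), two-sided, Benjamini-Hochberg adjustment over 13572 genes, threshold 0.05. CPM are TMM-normalized. Log2 CPM used a prior count of 2. Tables and figures used Python 3.11.15, pandas 2.3.3, scipy 1.17.1 and matplotlib 3.10.9. Exon lengths came from GENCODE, and promoters from RefSeq (GRCm38.p6). Alternatives used DESeq2 1.42.0 and limma 3.58.1, and the steps were tested on simulated data. A count of 0 was taken to allow 3 counts, for counting error only.

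The members and gene lists, written from memory, were chosen with earlier results of these data known. Named were the members, Egfr, Phlda1, overlapping genes, and in each list the genes past the adjusted threshold and the 4 with the smallest p. For each member, the 3 genes with the highest r were also taken by rule. Other genes named were chosen after their values were seen. Replicate numbers did not mark shared animals, and same-numbered libraries deviated from their group means with correlations of -0.08, 0.22 and 0.02, so no pairing was used. Rfwd2, C78339 and Emr1 were matched as older symbols of Cop1, Fam8a1 and Adgre1. The values of 2 listed genes, which entered the counts above, are not reported here.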

Additional observations from a re-analysis of the deposited data

How the results depend on the processing

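Of 210 recomputed values, 182 kept their direction and side of the threshold or stayed within 1.5 times the count reported. The main fit used the earlier edgeR quasi-likelihood method, so the alternative of that name repeated it. Its values, counted among the 182, could not differ. Atxn1 had a log2 fold change of 1.94 to 2.29 under its 16 alternatives, and no alternative gave Atxn1l, Cic, Etv1, Etv4 or Etv5 an adjusted p under 0.05 (DESeq2 gave none for Etv1). Etv1 and Etv4 could not be fitted with at least 10 counts in every library. Atxn1l changed sign to -0.057 with upper quartile normalization, which moved the median of all genes to -0.08, and to -0.013 without WT replicate 1, its highest value with a library left out being 0.073. Etv4 changed sign to -0.075 without Nr2e3-/- replicate 2 and reached 1.55 without Nr2e3-/- replicate 1. The method of edgeR version 4 and the ratio of Atxn1l to Cic were added after the data were seen.

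With limma-voom, 9 CIC-repressed genes and 9 partners passed an unadjusted p of 0.05, beside 36.7% of all genes. Leaving out 1 library at a time gave 2 to 7 CIC-repressed genes, 0 to 7 PEA3 targets, 1 to 11 partners, 0 to 1 COP1 genes, 2 to 8 RAS-ERK genes, 2 to 6 other ETS genes and 0 to 2 genes beside Atxn1, while 12.2% to 37.7% of all genes passed the same threshold. The number of all genes past the adjusted threshold was 13, but 1095 with DESeq2, 2360 with limma-voom, 70 without the filter, 8 with upper quartile normalization, 7 with at least 10 counts in every library, and 0 to 3022 with a library left out (3022 without Nr2e3-/- replicate 1). The cause was not tested.

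With the replicate number as a block, 2 PEA3 targets and 0 genes beside Atxn1 passed an unadjusted p of 0.05, no gene of the whole table passed the adjusted threshold (2438 passed the unadjusted one), and the log2 fold changes were 2.12 for Atxn1 and 0.84 for Etv4. The labels do not say what same-numbered libraries share. Not every library correlated best with the same number in the other group, though the replicate 2 libraries did (0.22, for deviations from the group means). Depth limits Etv1 and Etv4 most, with 3 to 65 counts per library.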

Other observations

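Among genes with a known or proposed link to CIC that were too low to test, Shc3 had 0 counts in all 6 libraries. Vgf had 0 counts in all WT libraries and at most 0.0662 CPM in Nr2e3-/- tumors. Epha4 was at 0.269 to 0.507 CPM in WT and 0.371 to 0.463 CPM in Nr2e3-/- tumors. Of the PEA3 targets too low to test, Ptgs2, which encodes cyclooxygenase-2, was at 0.576, 0.101 and 0.139 CPM in WT and 0, 0.0371 and 0 CPM in Nr2e3-/- tumors. Gfi1, a repressor that binds ATXN1, had 0 counts in all 3 Nr2e3-/- libraries and at most 0.135 CPM in WT.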
